A study of Mus musculus with 6 samples.

Results

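The subject here is 10 genes of the skeletal muscle Z-disc, followed through knockdown of BAF250A and of BRD9 in differentiating C2C12 cells. They are the sarcomeric alpha-actinins Actn2 and Actn3, the PDZ-LIM genes Ldb3, Pdlim3 and Pdlim5, the calsarcins Myoz1 and Myoz2, and Tcap, Myot and Synpo2l. They were chosen by symbol, as known Z-disc proteins, with earlier results of these data known. They are 10 of the 27179 genes listed in each of the authors' 2 deposited tables. All 10 had an adjusted p in both tables. C2C12 is an immortalised mouse myoblast line, and the cells were taken 48 h after a change to differentiation medium with horse serum and insulin. The 3 groups differ in the shRNA that the cells stably carried, which was scrambled, directed at BAF250A or directed at BRD9, with 2 libraries in each. SWI/SNF enzymes remodel chromatin and exist in several forms, of which BAF holds BAF250A, the product of Arid1a, and ncBAF holds BRD9. The title of the series asks whether these forms are required differently during muscle differentiation. Libraries within a group are biological duplicates by the design text, and the sources used here do not say whether a stable line was a clone or a pool, so p-values measure the spread between these libraries.

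The Z-disc is the plate that borders each sarcomere, the contractile unit of striated muscle. Alpha-actinin dimers cross-link actin filaments of opposite polarity there and anchor the end of titin. PDZ-LIM proteins, calsarcins and myotilin bind alpha-actinin, telethonin caps the end of titin, and several of these proteins also bind signalling enzymes such as the phosphatase calcineurin. Myoblasts express few of the muscle-specific members and turn them on as they form myotubes.

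The deposited tables give a mean over 4 libraries and a fold change for each gene, from which the whole reads of every library were recovered. All 10 genes resolved to 1 set of reads. The pair of libraries with the same reads in both tables is the scrambled pair, since both comparisons share it, and the sign of each fold change was read from it. Libraries of a group are called 1 and 2, in order of size factor, and they could not be matched to the labels' A and B. Normalized counts below are recovered reads divided by a size factor common to all 6 libraries. The genes that resolved held 23571751 to 39733253 reads per library, and these sums leave out the most abundant genes. Log2 fold changes and their standard errors (SE) come from the authors' deposited tables, as knockdown over scrambled shRNA. A gene is said to have risen or fallen where the authors' adjusted Wald p was below 0.05.

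Arid1a had 6298 and 3131 normalized counts in the scrambled libraries and 1287 and 1017 in the BAF250A libraries. Brd9 had 770 and 992 normalized counts in the scrambled libraries and 183 and 368 in the BRD9 libraries. Each targeted gene was therefore lower in both libraries of its own knockdown, at 24.4% and 31.2% of the scrambled mean. Of 7 skeletal muscle markers, 6 resolved, and their summed level was 107683 and 241025 in the scrambled libraries, 21578 and 23255 in the BAF250A libraries, and 245936 and 207233 in the BRD9 libraries. The 9 markers of other cell types summed to 631 and 395 normalized counts in the scrambled libraries, 49.4 and 45.4 in the BAF250A libraries and 1336 and 284 in the BRD9 libraries. Among these, Adipoq (fat) had 0 reads in all 6 libraries, and Ptprc (leukocytes) and Epcam (epithelium) had 0 reads in all 4 knockdown libraries. In the scrambled libraries Ptprc had 3.06 and 0 normalized counts and Epcam 1.22 and 0, so these 2 markers were near absent there too. Kdr (endothelium) had 218 and 128 normalized counts in the scrambled libraries, 0 and 0 in the BAF250A libraries and 2.20 and 3.50 in the BRD9 libraries. Cd68 (macrophages) had 125 and 181, 18.8 and 29.4, and 27.5 and 22.2 in the same order. Both were therefore present in the scrambled libraries and fell with either knockdown in the authors' deposited tables (adjusted Wald p = 1.34e-09 and 4.05e-10 for Kdr, 0.000233 and 0.00109 for Cd68), and their part in the results was not tested. Pecam1, another endothelial marker, had 3.67 and 6.16 normalized counts in the scrambled libraries, 9.41 and 1.23 in the BAF250A libraries and 4.41 and 0 in the BRD9 libraries. It was low throughout and did not pass in either of the authors' deposited tables (adjusted Wald p = 0.96 and 0.81). The neuronal marker Map2 made up most of the highest sum, with 1279 normalized counts in BRD9 library 1 and 252 in library 2. It had 276 and 66.9 normalized counts in the scrambled libraries and 11.8 and 14.7 in the BAF250A libraries. In the authors' deposited tables Map2 fell with BAF250A knockdown (adjusted Wald p = 1.69e-05) and rose with BRD9 knockdown (adjusted Wald p = 0.0478).

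To show what lies in front of these genes, the 250 bases before a start site are printed for 4 members that fell with BAF250A knockdown and for Pdlim5, which rose. The sequences are from RefSeq (GRCm38.p6, the assembly of mm10), each 5′ to 3′ on the strand of the gene, which is the minus strand for all 5. Capitals mark matches on either strand to the E-box (CANNTG, the site type of MyoD and myogenin), M-CAT (CATTCC), MEF2 and CArG motifs. The last 2 were searched as patterns that allow alternative letters at some positions.
Myoz2, chr3:123034988-123035237: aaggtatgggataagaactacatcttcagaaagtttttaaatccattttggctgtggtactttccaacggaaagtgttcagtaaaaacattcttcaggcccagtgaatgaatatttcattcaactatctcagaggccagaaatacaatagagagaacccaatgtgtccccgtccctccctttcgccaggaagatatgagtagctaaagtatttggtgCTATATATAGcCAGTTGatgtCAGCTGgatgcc
Actn2, chr13:12340733-12340982: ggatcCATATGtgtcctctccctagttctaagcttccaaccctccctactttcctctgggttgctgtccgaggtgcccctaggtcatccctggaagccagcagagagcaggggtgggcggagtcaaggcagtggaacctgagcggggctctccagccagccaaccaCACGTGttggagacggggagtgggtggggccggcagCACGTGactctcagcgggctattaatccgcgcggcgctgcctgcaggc
Synpo2l, chr14:20668355-20668604: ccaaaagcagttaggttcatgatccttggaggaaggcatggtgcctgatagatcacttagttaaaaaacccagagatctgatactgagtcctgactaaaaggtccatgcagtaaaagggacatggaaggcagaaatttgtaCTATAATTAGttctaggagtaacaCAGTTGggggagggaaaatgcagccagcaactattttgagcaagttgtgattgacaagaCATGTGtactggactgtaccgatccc
Ldb3, chr14:34588682-34588931: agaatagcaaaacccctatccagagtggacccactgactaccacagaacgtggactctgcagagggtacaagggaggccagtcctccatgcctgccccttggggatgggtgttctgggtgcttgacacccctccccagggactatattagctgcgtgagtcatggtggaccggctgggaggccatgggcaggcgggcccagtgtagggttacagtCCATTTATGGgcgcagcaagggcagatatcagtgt
Pdlim5, chr3:142395697-142395946: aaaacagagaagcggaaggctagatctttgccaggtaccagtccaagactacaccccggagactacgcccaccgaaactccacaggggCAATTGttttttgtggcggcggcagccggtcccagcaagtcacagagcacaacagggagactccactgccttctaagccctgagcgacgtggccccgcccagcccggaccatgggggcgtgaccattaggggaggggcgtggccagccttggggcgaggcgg
The Myoz2 window held a MEF2 match whose first base lies at -33, followed by an E-box at -22 and another of the form CAGCTG at -12, counted from the base before the start. The Actn2 window held 3 E-boxes, at -245, -84 and -48. In the Synpo2l window there was a MEF2 match at -109 and E-boxes at -85 and -26, and in the Ldb3 window a CArG match at -35. The Pdlim5 window held 1 E-box, at -162.

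RefSeq promoter windows of 6 of the 10 genes were searched, 9 windows in all, which run from 250 bases before to 50 bases after a start. The chromosome of Myot was left out of this search. An E-box lay in windows of 5 of these 6 genes, against 72.3% of all 32851 promoter windows, and its form CAGCTG, which is counted among the E-boxes too, in 3, against 16.3%. M-CAT matches were found for Pdlim3 alone, against 14.7% of all windows. MEF2 matches were found for Myoz2 and Synpo2l, against 3.19%, and a CArG match for Ldb3, against 1.63%. These are letter matches in short windows, and Ldb3, Pdlim5 and Synpo2l have more than 1 window.

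BAF250A knockdown lowered 8 of the 10 Z-disc genes and raised 1. Among the genes with reads left, Tcap, Myoz2 and Actn2 were the lowest, at 1.99%, 3.83% and 4.38% of the scrambled mean, and Synpo2l fell to 13.7%. Myot had no read left, so it has only a bound and no place in that order. Actn3, Ldb3 and Myoz1 fell to between 18.3% and 38.5%, Pdlim5 rose to 240% and Pdlim3 was at 69.3% without passing the test. In the authors' deposited table, 28.7% of 16450 genes tested passed, 17.5% lower and 11.2% higher. Both BAF250A libraries lay below both scrambled libraries for 9 of the 10 genes, as they did for 37.9% of all genes tested and resolved, and above them for 1, beside 28.6%. The median log2 fold change of the 10 genes in the authors' deposited table was -2.55, beside -0.18 over all genes tested. Among members whose mean was 100 or more it was -1.85, beside 0.03 over all genes of such a mean. From ratios of group means, with Myot at its bound, the median of the 10 was -2.57. Summed skeletal muscle markers were lower in the BAF250A libraries as well, as given above, and their part in the result was not tested. Of these markers, Myod1 was higher in both BAF250A libraries than in both scrambled libraries. In bulk RNA, fewer cells of a type and less RNA per cell cannot be told apart.

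**Figure D1:**
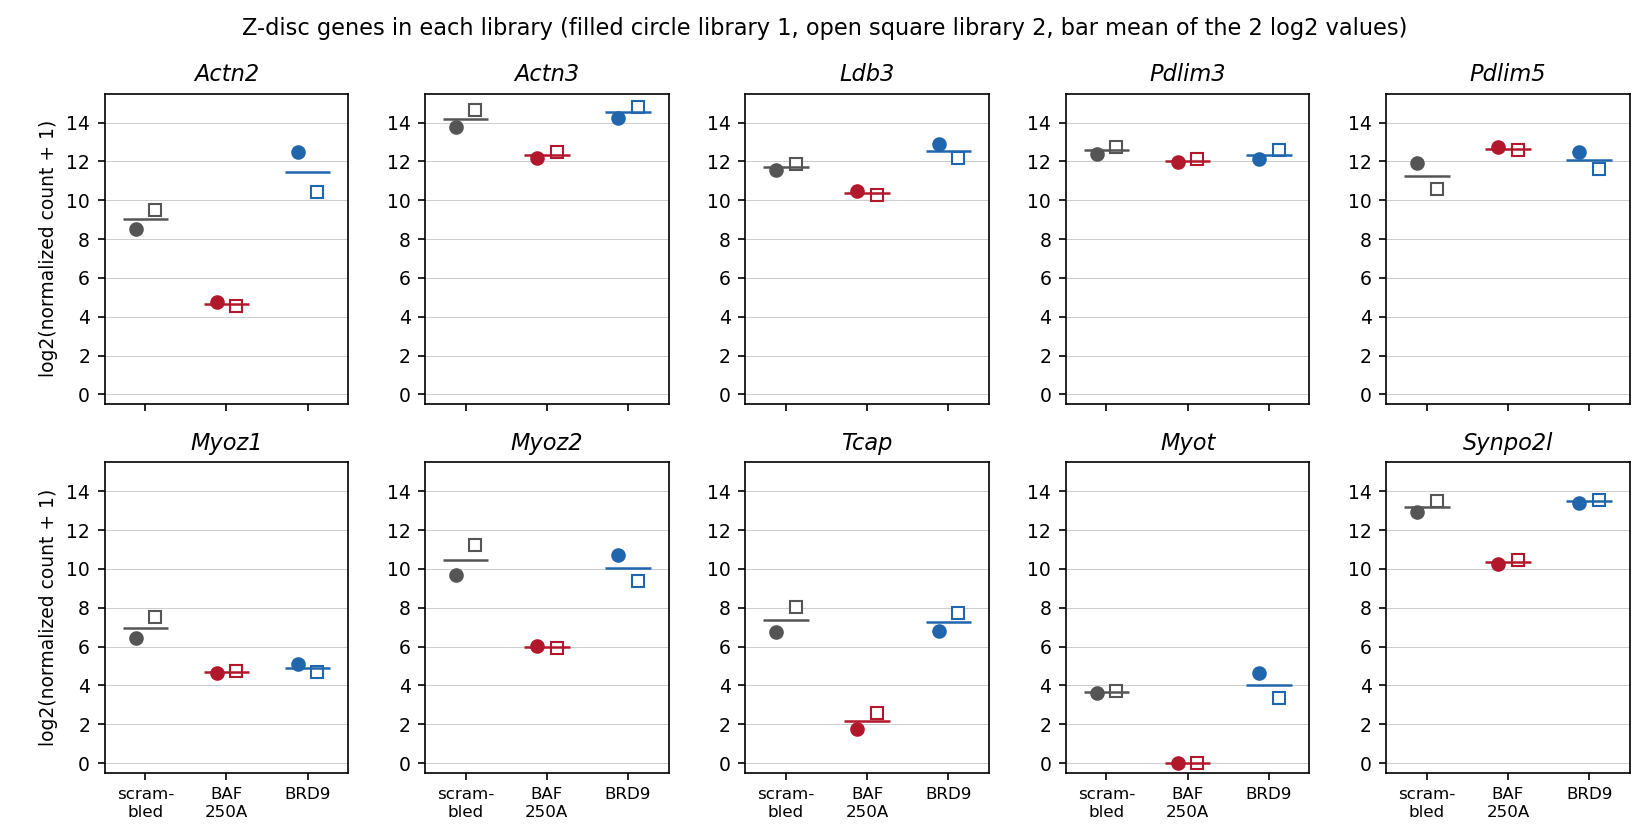
Normalized counts of each Z-disc gene in the 6 libraries, as log2 of the count plus 1, with 1 panel per gene and groups on the horizontal axis. Filled circles are library 1, open squares library 2, and bars the mean of the 2 log2 values. The BAF250A libraries lie below both scrambled libraries for 9 genes and above them for Pdlim5, and Actn2 in the BRD9 libraries reaches 5688 and 1371 normalized counts.

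Both alpha-actinins fell with BAF250A knockdown. Actn2 (Entrez gene 11472, chr13:12269426-12340760 in GRCm38, minus strand), the isoform of all striated muscle, had 371 and 724 normalized counts in the scrambled libraries and 25.9 and 22.1 in the BAF250A libraries. These were 22 and 18 reads, and the groups did not overlap. Its log2 fold change in the authors' deposited table was -4.33 (SE 0.55, adjusted Wald p = 1.31e-13). Actn3 (Entrez gene 11474, chr19:4861216-4877909, minus strand), the isoform of fast fibres, had 13907 and 25695 normalized counts in the scrambled libraries and 4592 and 5837 in the BAF250A libraries. Its fall was smaller, with a log2 fold change of -1.85 in the authors' deposited table (SE 0.47, adjusted Wald p = 0.000537). Per kb of exon, Actn3 stood at 39.1 and 37.0 times the Actn2 level in the scrambled libraries and at 185 and 276 times in the BAF250A libraries. Actn1, an alpha-actinin of non-muscle cells, had 17741 and 11603 normalized counts in the scrambled libraries and 22237 and 22970 in the BAF250A libraries, and its log2 fold change of 0.64 in the authors' deposited table did not pass (SE 0.44, adjusted Wald p = 0.29). Actn3 was at 1.03 and 2.91 times the Actn1 level per kb in the scrambled libraries and at 0.272 and 0.334 times in the BAF250A libraries.

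The PDZ-LIM genes went different ways. Ldb3 (Entrez gene 24131, chr14:34526603-34588682, minus strand) encodes ZASP, also called Cypher, which binds alpha-actinin through its PDZ domain. It had 3064 and 3792 normalized counts in the scrambled libraries and 1409 and 1228 in the BAF250A libraries, a log2 fold change of -1.32 in the authors' deposited table (SE 0.43, adjusted Wald p = 0.01005). Pdlim3 (Entrez gene 53318, chr8:45885461-45919548, plus strand), which encodes the actinin-associated LIM protein ALP, had 5400 and 6821 normalized counts in the scrambled libraries and 4072 and 4400 in the BAF250A libraries. The groups did not overlap, but its log2 fold change of -0.49 in the authors' deposited table did not pass (SE 0.42, adjusted Wald p = 0.415). Pdlim5 (Entrez gene 56376, chr3:142239590-142395696, minus strand) encodes ENH, a PDZ-LIM protein that also binds protein kinase C and is not limited to muscle. It had 3875 and 1538 normalized counts in the scrambled libraries, which differed 2.52-fold, and 6811 and 6171 in the BAF250A libraries. The authors' deposited table gave a log2 fold change of 1.25 (SE 0.50, adjusted Wald p = 0.0458). Per kb, Ldb3 was at 0.894 and 2.79 times the Pdlim5 level in the scrambled libraries and at 0.234 and 0.225 times in the BAF250A libraries.

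Both calsarcins fell. Calsarcins tether calcineurin to alpha-actinin at the Z-disc, with Myoz2 the form of slow fibres and heart and Myoz1 that of fast fibres. Myoz2 (Entrez gene 59006, chr3:123006206-123035015, minus strand) had 834 and 2366 normalized counts in the scrambled libraries and 63.5 and 58.9 in the BAF250A libraries. The scrambled libraries differed 2.84-fold, which was small beside the distance to the knockdown, and the log2 fold change in the authors' deposited table was -4.52 (SE 0.55, adjusted Wald p = 5.81e-15). Myoz1 (Entrez gene 59011, chr14:20649107-20656540, minus strand) had 85.7 and 183 normalized counts in the scrambled libraries and 23.5 and 25.8 in the BAF250A libraries. The authors' deposited table gave it a log2 fold change of -2.31 (SE 0.63, adjusted Wald p = 0.00183). Myoz2 was at 10.6 and 14.1 times the Myoz1 level per kb in the scrambled libraries and at 2.95 and 2.49 times in the BAF250A libraries. The third calsarcin gene, Myoz3, had at most 4.91 normalized counts in any library and no adjusted p in either table.

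Telethonin, myotilin and synaptopodin-2-like fell as well. Tcap (Entrez gene 21393, chr11:98383811-98384953, plus strand), whose product telethonin caps titin at the Z-disc, had 105 and 259 normalized counts in the scrambled libraries. In the BAF250A libraries it had 2 and 4 reads, or 2.35 and 4.91 normalized counts. The log2 fold change of Tcap in the authors' deposited table was -5.21 (SE 0.78, adjusted Wald p = 5.06e-10). Myot (Entrez gene 58916), the gene of myotilin, which binds alpha-actinin, filamin C and actin, was the least abundant of the 10 per kb of exon, with 18 and 14 reads in the scrambled libraries and 0 in both BAF250A libraries. A floor of 3 reads over the BAF250A group puts it at least 6.48-fold lower. The log2 fold change of Myot in the authors' deposited table was -3.86, with a wide SE of 1.44 (adjusted Wald p = 0.0296), and as a fitted value against 0 reads it is no measure of size. Synpo2l (Entrez gene 68760, chr14:20658946-20668354, minus strand) encodes an actin- and alpha-actinin-binding Z-disc protein also called CHAP. It had 7728 and 11627 normalized counts in the scrambled libraries and 1225 and 1423 in the BAF250A libraries. In the authors' deposited table its log2 fold change was -2.78 (SE 0.44, adjusted Wald p = 5.7e-09).

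In limma on the recovered reads of all 6 libraries, which called 26.8% of 14149 genes for BAF250A, 7 of the 9 Z-disc genes tested fell. Pdlim5 narrowly missed there (log2 fold change 1.39, limma adjusted p = 0.0507), and Myot lay under its mean of 10. With each library left out in turn, Tcap, Myoz2 and Synpo2l kept their call in all 6 limma fits. Actn2 lost it without scrambled library 1 or 2 (limma adjusted p = 0.0636 and 0.140), Actn3 without BAF250A library 1 (0.0554), and Myoz1 without BAF250A library 1 or 2 (0.122 and 0.0978). Ldb3 lost it without scrambled library 2 or BAF250A library 1 or 2 (limma adjusted p = 0.0547, 0.178 and 0.266), and Pdlim5 was called only without scrambled library 1 (log2 fold change 2.08, limma adjusted p = 0.0151).

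BRD9 knockdown raised Actn2 and lowered Myoz1, and the other 8 Z-disc genes did not pass. Actn2 had 5688 and 1371 normalized counts in the BRD9 libraries, against 371 and 724 in the scrambled libraries. The BRD9 libraries differed 4.15-fold, both lay above both scrambled libraries, and the mean ratio was 6.45. Such a rise without overlap was seen for 2 of the 10 genes, beside 22.1% of all genes, and a fall without overlap for 1, beside 30.2%. Its log2 fold change in the authors' deposited table was 2.53 (SE 0.63, adjusted Wald p = 0.000825). Myoz1 had 33.1 and 24.5 normalized counts in the BRD9 libraries, against 85.7 and 183, or 21.4% of the scrambled mean. Its log2 fold change in the authors' deposited table was -2.06 (SE 0.66, adjusted Wald p = 0.0150). In the authors' deposited table for BRD9, 14.4% of 17198 genes tested passed, 5.11% higher and 9.33% lower, so 1 gene of 10 in each direction is near the share of all genes. The median log2 fold change of the 10 genes in the authors' deposited table was 0.26, beside -0.15 over all genes tested.

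**Figure D2:**
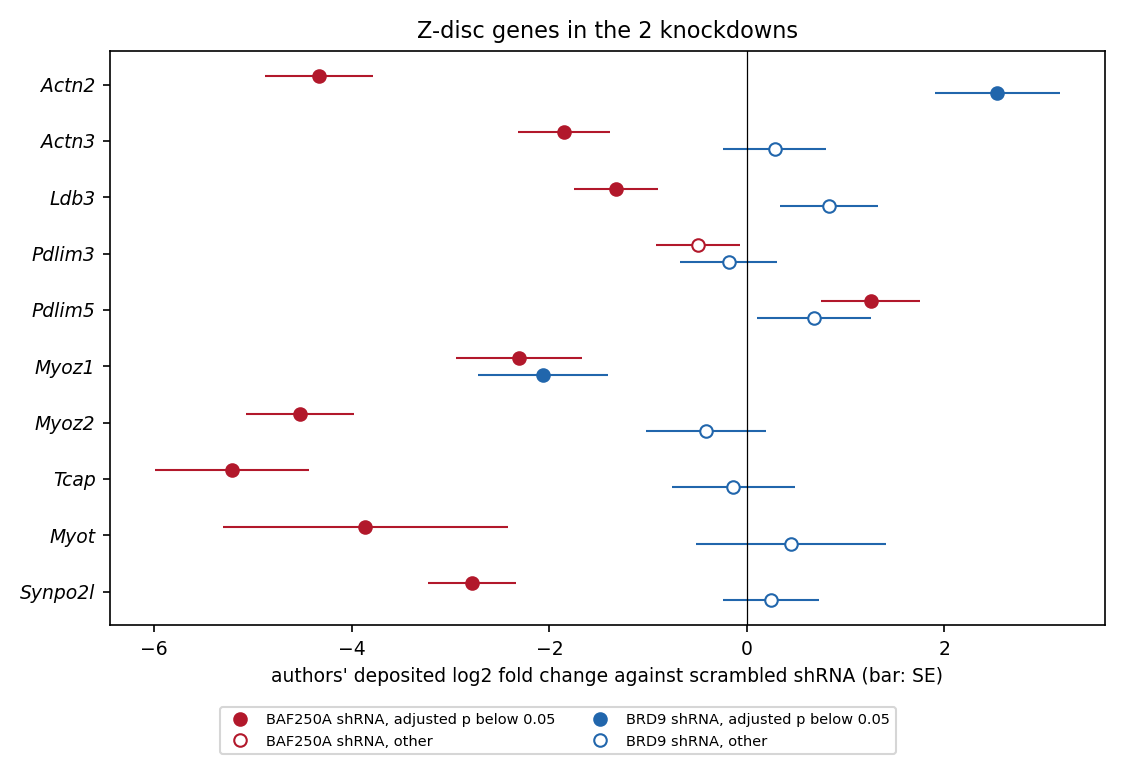
The authors' deposited log2 fold change of each Z-disc gene against scrambled shRNA, with bars of 1 SE, for BAF250A shRNA (red) and BRD9 shRNA (blue). Filled points have an adjusted Wald p below 0.05. The values run from -5.21 to 1.25 for BAF250A and from -2.06 to 2.53 for BRD9, and both comparisons use the same 2 scrambled libraries.

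The 8 genes that did not pass had deposited log2 fold changes between -0.41 (Myoz2) and 0.83 (Ldb3) in the authors' deposited table. Ldb3 had 7716 and 4711 normalized counts in the BRD9 libraries, both above the scrambled values of 3064 and 3792, with an adjusted Wald p of 0.310. Actn3 had 19163 and 28862 normalized counts and Synpo2l 10693 and 12188, and each overlapped its scrambled pair. Myoz2 (1682 and 662), Tcap (112 and 212), Pdlim3 (4428 and 6209), Pdlim5 (5832 and 3145) and Myot (24.2 and 9.34) overlapped theirs in normalized counts too. The median SE was 0.54 among genes of mean 100 or more, and the smallest change called for any gene in this comparison was 1.29 in size. Changes under that size were not detectable at this spread, and genes with a wider SE needed larger ones. The SE was 0.96 for Myot, 0.62 for Tcap and 0.61 for Myoz2. Per kb, Actn3 was at 3.52 and 22.0 times the Actn2 level in the BRD9 libraries, against 39.1 and 37.0 in the scrambled libraries. Myoz2 was at 55.6 and 29.5 times the Myoz1 level per kb, against 10.6 and 14.1.

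Both calls of the BRD9 comparison also passed in limma on recovered reads, which called 16.9% of genes, with adjusted p = 0.0191 for Actn2 and 0.0450 for Myoz1. Actn2 lost its limma call without BRD9 library 1 (log2 fold change 1.41, adjusted p = 0.191) and without scrambled library 1 or 2 (0.135 and 0.0879). Myoz1 lost its limma call without scrambled library 2 (log2 fold change -1.56, adjusted p = 0.0761) and without BRD9 library 1 or 2 (0.113 and 0.178), and Pdlim5 gained a limma call without scrambled library 1 (1.48, adjusted p = 0.0425). In the same BRD9 library 1, Neb and Ttn, which encode giant sarcomere proteins, and Map2 were high beside library 2, and the part of this in the Actn2 result was not tested.

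The 2 knockdowns differed for 5 of the 10 genes, all higher with BRD9 shRNA than with BAF250A shRNA. Among 16311 genes tested in both tables, 2.54% differed, 1.99% in that direction and 0.552% in the other. The difference of the log2 fold changes, BRD9 minus BAF250A, was 6.87 for Actn2 (SE 0.84, adjusted p of a z test = 1.05e-12), with 5688 and 1371 normalized counts against 25.9 and 22.1. It was 5.08 for Tcap (SE 1.00, adjusted p of a z test = 6.14e-05), 4.11 for Myoz2 (SE 0.82, adjusted p of a z test = 9.03e-05) and 3.03 for Synpo2l (SE 0.66, adjusted p of a z test = 0.000497). Ldb3 differed by 2.16 (SE 0.66, adjusted p of a z test = 0.0428), and Actn3 by a like 2.13 that did not pass (SE 0.70, adjusted p of a z test = 0.0738). Myot differed by 4.31 without passing (SE 1.73, adjusted p of a z test = 0.262). The other 3, Myoz1 (0.24, SE 0.91), Pdlim3 (0.31, SE 0.65) and Pdlim5 (-0.57, SE 0.76), had an adjusted p of 1.00 in the z test. Because the scrambled libraries enter both fold changes, this test overstates the error. Compared directly, both BAF250A libraries lay below both BRD9 libraries for 8 of the 10 genes, as they did for 27.0% of all genes tested in both tables and resolved.

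**Figure D3:**
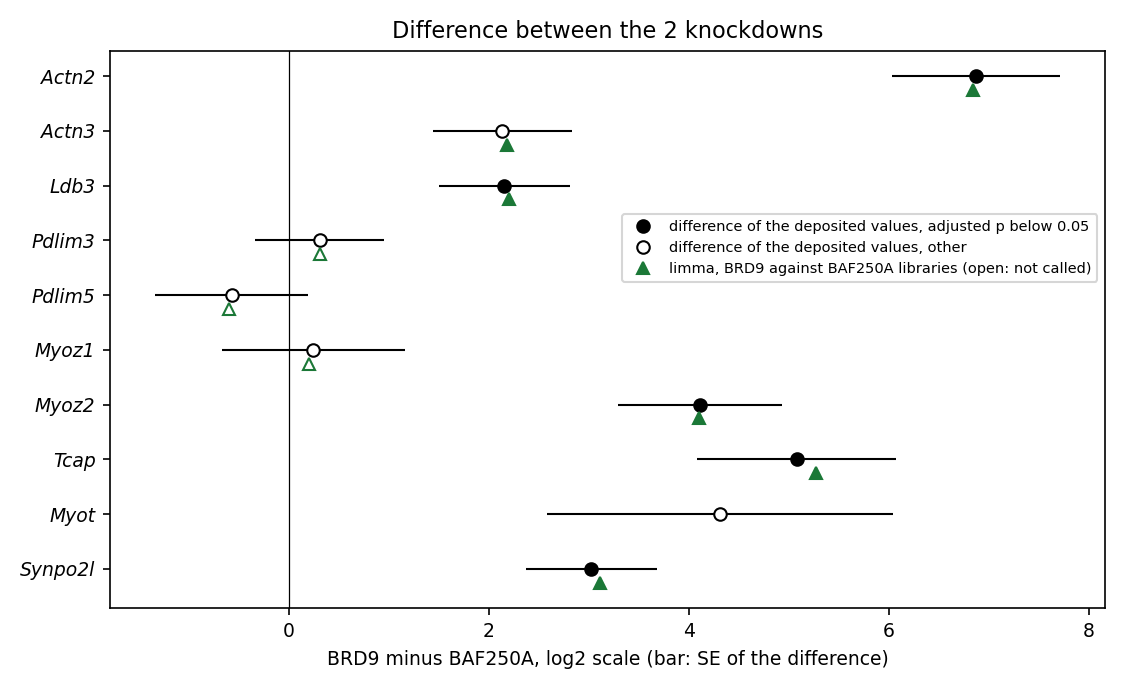
Difference between the knockdowns for each Z-disc gene, as BRD9 minus BAF250A on the log2 scale, with bars of 1 SE. Circles are the differences of the authors' deposited values and triangles the direct limma comparison of recovered reads, where Myot was not tested, and filled symbols have an adjusted p below 0.05. Actn2 stands at 6.87, and Myoz1, Pdlim3 and Pdlim5 lie within 1 SE of 0.

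In the direct limma comparison of BRD9 with BAF250A libraries, which called 5.57% of genes, 6 of the 9 genes tested differed, and Actn3 was the one added (2.18, limma adjusted p = 0.00969). Actn2 lost its limma call without scrambled library 1 or 2, though its log2 difference was 6.84 in both fits, as with all 6 libraries. The scrambled libraries enter this comparison only through the estimate of spread. Actn3 lost its call without BRD9 library 2 (log2 difference 1.89) and Myoz2 without BRD9 library 1 (3.42). Ldb3 lost its call without BAF250A library 2 or BRD9 library 1 (2.10 and 1.84).

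The order of the members by level, as normalized counts per kb of merged exon, also changed between groups. In the scrambled libraries the group means ran from Actn3 (6859 per kb) through Pdlim3 (3156), Synpo2l (2091), Myoz2 (1355), Ldb3 (561), Pdlim5 (392), Tcap (192), Actn2 (182) and Myoz1 (104) to Myot (5.28). Of neighbours in that order, Actn3, Pdlim3 and Synpo2l were separate in both libraries, as were Myoz2 from Ldb3 and Myot from all others. The ranges of Synpo2l and Myoz2 over the libraries overlapped, and so did those of each neighbouring pair from Ldb3 down to Myoz1. Within each scrambled library, Synpo2l was above Myoz2 (1669 against 706 and 2512 against 2004 per kb). Actn2 was likewise above Myoz1 (123 against 66.4 and 240 against 142 per kb). In the BAF250A libraries Pdlim3 (2188 per kb) came first, ahead of Actn3 (1806) and Pdlim5 (940). Synpo2l (286 per kb), Ldb3 (216), Myoz2 (51.8), Myoz1 (19.1), Actn2 (7.96) and Tcap (3.83) followed, and no neighbours in this order overlapped. By group mean in the BRD9 libraries, Actn2 (1171 per kb) came next after Actn3 (8317), Pdlim3 (2747) and Synpo2l (2471), of which the last 2 overlapped with each other. Actn2 overlapped with Ldb3 (1018 per kb), and its place rests on library 1, where it had 1888 per kb. In library 2 Actn2 had 455 per kb, below Ldb3 (772) and Myoz2 (560) and next to Pdlim5 (456). Further down the group means, Ldb3 overlapped with Myoz2 (992 per kb) and Myoz2 with Pdlim5 (650), though Myoz2 was above Pdlim5 within each library. Tcap (171 per kb), Myoz1 (22.3) and Myot (7.60) stood apart from each other.

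**Figure D4:**
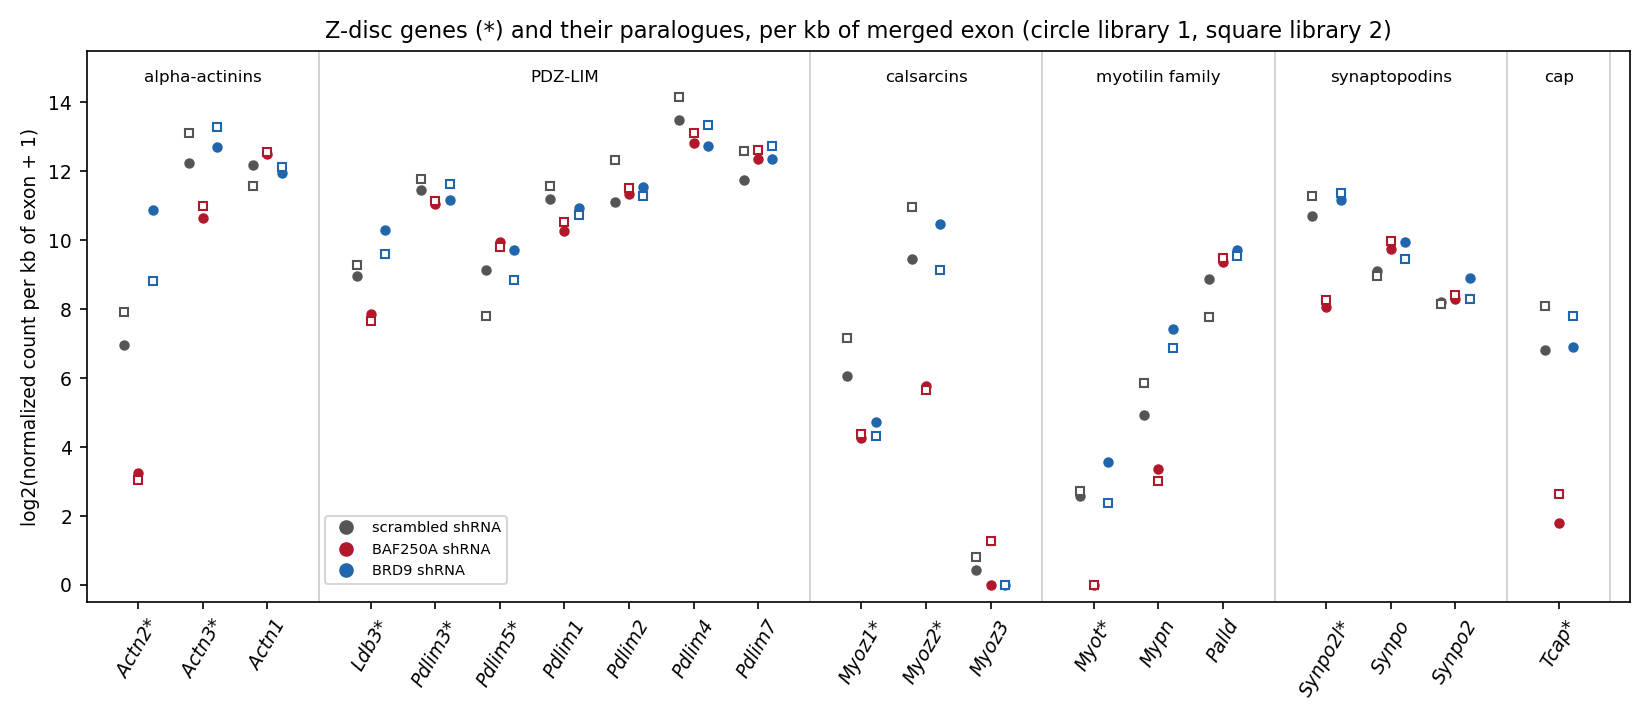
Level of the Z-disc genes (asterisk) and their measured paralogues in each library, as log2 of the normalized count per kb of merged exon plus 1, grouped by family. Circles are library 1 and squares library 2, in grey for scrambled, red for BAF250A and blue for BRD9 shRNA. Before the log, Actn1 lies between 3053 and 6045 per kb over the 6 libraries and Actn2 between 7.33 and 1888 per kb.

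Of 10 paralogues of these genes tested in each of the authors' deposited tables, 1 fell with BAF250A knockdown, beside 17.5% of all genes tested, and 1 rose with BRD9 knockdown, beside 5.11%. These counts are near the shares over all genes, and both were Mypn. Mypn encodes myopalladin, a Z-disc protein of the myotilin family that binds alpha-actinin and nebulin. It had 170 and 335 normalized counts in the scrambled libraries, 54.1 and 41.7 in the BAF250A libraries, and 992 and 680 in the BRD9 libraries, so the 3 groups did not overlap. Its log2 fold change in the authors' deposited tables was -2.28 with BAF250A (SE 0.56, adjusted Wald p = 0.000403) and 1.67 with BRD9 (SE 0.54, adjusted Wald p = 0.0178). Palld, the gene of palladin, a relative found in many cell types, had values of 1.00 (adjusted Wald p = 0.10) and 1.14 (adjusted Wald p = 0.15) in the authors' deposited tables. The median over the paralogues in the authors' deposited tables was 0.18 with BAF250A and 0.22 with BRD9. Synpo2l was at 5.63 and 8.79 times the level of its paralogue Synpo2 per kb in the scrambled libraries, at 0.849 and 0.909 times in the BAF250A libraries, and at 4.84 and 8.35 times in the BRD9 libraries.

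Of 18 other Z-disc and Z-disc-linked genes, 9 fell and 2 rose with BAF250A knockdown, and 2 rose and 0 fell with BRD9 knockdown, by the adjusted Wald p of the authors' deposited tables. The shares over all genes tested were 17.5% lower and 11.2% higher with BAF250A, and 5.11% higher and 9.33% lower with BRD9. The 2 of 18 that rose with BAF250A are near that share. The median log2 fold change of the 18 genes in the authors' deposited tables was -1.15 with BAF250A and 0.38 with BRD9. With BAF250A knockdown Smpx, the gene of a small muscle protein, fell by 6.72 on the log2 scale in the authors' deposited table (SE 0.77, adjusted Wald p = 1.25e-16). Ttn, the gene of titin, which telethonin caps, was at -3.14 (SE 0.44, adjusted Wald p = 4.44e-11) in the authors' deposited table, and Csrp3, the gene of muscle LIM protein, at -2.59 (SE 0.58, adjusted Wald p = 9.26e-05). Smpx had 319 and 434 normalized counts in the scrambled libraries and 4.71 and 0 in the BAF250A libraries. Ttn had 12270 and 7867 normalized counts in the scrambled libraries, 1143 and 991 in the BAF250A libraries, and 15360 and 4917 in the BRD9 libraries. With BRD9 knockdown the genes that rose in the authors' deposited table were Neb, the gene of nebulin (2.43, SE 0.65, adjusted Wald p = 0.00214), and Capza2, an actin-capping subunit (1.64, SE 0.57, adjusted Wald p = 0.0294). Neb had 1685 and 1052 normalized counts in the scrambled libraries and 13876 and 2724 in the BRD9 libraries, the same uneven pair as for Actn2. For Capza2 the scrambled pair was uneven, with 961 and 370 normalized counts, against 2563 and 1860 in the BRD9 libraries. Capza2 rose with BAF250A knockdown too, by 1.62 in the authors' deposited table (SE 0.52, adjusted Wald p = 0.00845). It had 2284 and 1882 normalized counts in the BAF250A libraries, against the same scrambled pair.

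**Figure D5:**
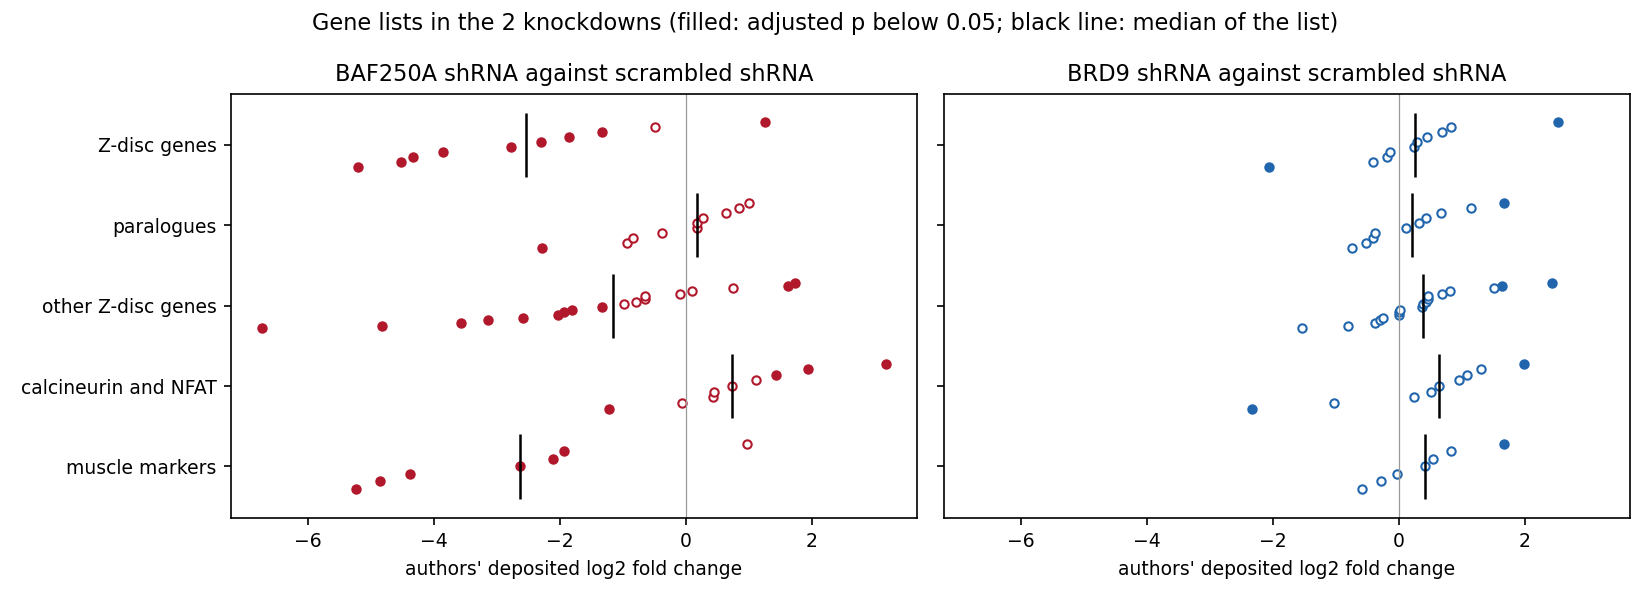
The authors' deposited log2 fold changes of 5 gene lists with BAF250A shRNA (left) and BRD9 shRNA (right), 1 point per gene tested, filled where the adjusted Wald p is below 0.05, with a black line at the median of each list. The medians of the Z-disc genes stand at -2.55 and 0.26, and those of the skeletal muscle markers at -2.64 and 0.41.

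Calcineurin, which calsarcins bind, and the NFAT factors that it activates were followed as a list of 9 genes. With BAF250A knockdown 3 rose and 1 fell, and with BRD9 knockdown 1 rose and 1 fell, by the adjusted Wald p of the authors' deposited tables. Of all genes tested, 11.2% rose and 17.5% fell with BAF250A, and 5.11% rose and 9.33% fell with BRD9, so 1 of 9 is near the share over all genes. Nfatc4 had 224 and 365 normalized counts in the scrambled libraries and 2554 and 2929 in the BAF250A libraries, a log2 fold change of 3.17 in the authors' deposited table (SE 0.46, adjusted Wald p = 8.57e-11). Nfatc2 rose in both comparisons, by 1.95 with BAF250A (SE 0.55, adjusted Wald p = 0.00255) and 1.99 with BRD9 (SE 0.61, adjusted Wald p = 0.0109) in the authors' deposited tables, which share their scrambled libraries. Ppp3cb, a catalytic subunit of calcineurin, rose by 1.43 with BAF250A (SE 0.53, adjusted Wald p = 0.0295) in the authors' deposited table. Its scrambled libraries were uneven, with 2023 and 655 normalized counts, against 3535 and 3783 in the BAF250A libraries. Rcan1, a regulator of calcineurin that NFAT factors induce, fell by 1.22 with BAF250A (SE 0.45, adjusted Wald p = 0.0261), and its relative Rcan2 fell by 2.33 with BRD9 (SE 0.57, adjusted Wald p = 0.000599) in the authors' deposited tables. Rcan2 had 1373 and 555 normalized counts in the scrambled libraries and 192 and 163 in the BRD9 libraries.

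Of the 7 skeletal muscle markers, 6 fell with BAF250A knockdown and 0 rose, and with BRD9 knockdown 1 rose and 0 fell, by the adjusted Wald p of the authors' deposited tables. The shares over all genes tested were 17.5% lower and 11.2% higher with BAF250A, and 5.11% higher and 9.33% lower with BRD9. The falls in the authors' deposited table were largest for Ckm, muscle creatine kinase (-5.24, SE 0.55, adjusted Wald p = 9.36e-20), and Mymk, the fusion protein myomaker (-4.86, SE 0.51, adjusted Wald p = 2.02e-19). Myod1, the myogenic factor, was the marker that rose with BRD9 knockdown, by 1.67 (SE 0.53, adjusted Wald p = 0.0142) in the authors' deposited table. Myod1 was also the marker that did not fall with BAF250A knockdown. It had 2806 and 5430 normalized counts in the scrambled libraries and 7637 and 8455 in the BAF250A libraries. Both BAF250A libraries therefore lay above both scrambled libraries, but its log2 fold change of 0.97 in the authors' deposited table did not pass (SE 0.47). The scrambled libraries were uneven for these markers and for the Z-disc genes alike. Library 2 was higher than library 1 for 9 of the 10 Z-disc genes, from 1.12-fold for Myot to 2.84-fold for Myoz2, and lower for Pdlim5, at 0.397 of library 1. Over all genes tested in both tables and resolved, library 2 was the higher for 53.2%. Arid1a was lower in scrambled library 2 than in library 1 by the values above, and whether this bears on the Z-disc genes was not tested.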

How the data were processed

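RNA was sequenced from 6 libraries, 2 each of C2C12 cells with scrambled, BAF250A or BRD9 shRNA. Bowtie, HISAT, RSEM, StringTie and DESeq2, and the genome mm10, appear in the submitters' processing notes without roles or versions. Per the file headers, the authors deposited 1 table per knockdown with a mean normalized count, a signal averaged over 4 libraries. Per the file headers, the authors also give a log2 fold change with its standard error on the log2 scale. The Wald score is, per the file headers and by recalculation, the deposited fold change divided by its error. A p-value and an adjusted p-value are deposited per the file headers, and the adjusted one was returned by a Benjamini-Hochberg recalculation over every gene with a value. No per-library columns were used.

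Whole reads were recovered in Python 3.11.15 from the means, whose digits fix the sum of reads times a step per library. The fold changes and errors were a further constraint, through a negative binomial model with a normal prior on each group term. Sets of reads whose fitted log2 fold change was off by more than 5e-07 were dropped, and 28 genes had no set left. The largest gap among resolved genes, 4.71e-07, is bounded by that rule, so it is no separate test of the model. In 11592 resolved genes the fold change was fitted in both tables. With such a prior, the deposited fold changes are drawn toward 0, most for genes with few reads. Of 20990 genes with a read, 20737 (98.8%) resolved to 1 set. The 4-library size factors were 0.773 to 1.58. Recovered reads entered limma 3.58.1 (voom, R 4.3.3) with median-of-ratios factors and a mean of 10 or more. The method was tested on simulated data. With 2 libraries against 2, an exact two-sided permutation test of 1 gene cannot go below p = 0.333, so tests across all genes were used.

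Coordinates and exon lengths come from GENCODE M21 (GRCm38). At most 1.62% of the 31-base words of a member's transcripts occur in other genes. The difference between knockdowns was a two-sided z test over 16311 genes. The members and the gene lists were chosen with earlier results of these data known. All 10 members are named. From other lists, called genes with a mean of 100 or more are named, at most 4 per list and comparison, and any measured paralogue. Markers at 0 reads are named too. Kdr, Cd68 and Pecam1 were added after their values were seen. A gene that this rule names is not reported here.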

Additional observations from a re-analysis of the deposited data

How the results depend on the processing

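Of 9 Z-disc genes called with BAF250A knockdown, 4 stayed under a Bonferroni adjustment, 2 under a null scaled to the observed spread of Wald scores and 4 in a test for changes of more than 1 in size. For BRD9, where 2 were called (2 also by unadjusted Wald p below 0.05), these 3 settings gave 0 each, and limma gave 2. An adjusted p below 0.01 gave 1 for BRD9, and so did a mean of 100 or more, which leaves Myoz1 out. Of 5 genes that differed between knockdowns, 3 stayed under Bonferroni. The median with BAF250A was -1.85 with a mean of 100 or more, which drops 3 low genes. Centring on the median moved values by 0.03 and 0.05 and ended the call of Pdlim5 (adjusted p of the DESeq2 Wald test = 0.0534), as did no independent filter (0.0580). With 1 library left out in limma, calls numbered 4 to 7 for BAF250A, 0 to 2 for BRD9 and 4 to 6 for the difference, and a group left with 1 library is assumed to vary like the others. The limma fits, blocked ones included, the factors and the ratios of group means were chosen after seeing the data. No called value changed its sign under any setting run. Over the single genes, 442 tested values kept their side of the threshold, 59 lost it and 15 gained it, and the cause was not tested. The recovered libraries cannot be matched to the labels' A and B, so limma with a replicate block was run under each of the 4 possible matchings, and it called 7 to 8 genes for BAF250A, 2 for BRD9 and 6 for the difference. Depth limits Myot and, with BAF250A, Tcap.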

Other observations

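Myoz1 and Synpo2l lie 2405 bases apart on chromosome 14, on the same strand, and their values in the authors' deposited tables went together with BAF250A knockdown (log2 fold changes -2.31 and -2.78) and apart with BRD9 knockdown (-2.06 and 0.24). Synpo2l had 10693 and 12188 normalized counts in the BRD9 libraries, where Myoz1 had 33.1 and 24.5. The difference between the 2 genes within a knockdown was not tested.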
